A study of Mus musculus with 15 samples.

Results

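The transcripts described here are snoRNA host RNAs and long nuclear noncoding RNAs of mouse myoblasts. They were chosen by name: Gas5, Snhg1, Snhg3, Snhg5, Snhg6, Snhg8 and Snhg12, whose introns carry small nucleolar RNAs, and Malat1, Neat1 and Meg3. Of these 10 genes, 4 had a probe set whose only gene symbol was theirs (Gas5, Snhg5, Malat1 and Meg3), out of 19452 genes named in this way over 25175 probe sets. The other 6 (Snhg1, Snhg3, Snhg6, Snhg8, Snhg12 and Neat1) had none and were not analysed here. The 4 genes had 7 such probe sets, 4 of them of Gas5 and 1 each of the others, and where a count is given per gene, 10351037, the brightest Gas5 probe set by its mean over the 0 min arrays, stands for the gene.

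C2C12 cells, a line of proliferating mouse myoblasts, were used as the stable LKO1 line, which carries an empty lentivirus vector, and were kept sparse to prevent differentiation. Every sample was treated with 8 µg/mL actinomycin D, which blocks transcription, for 30 min and collected 0, 10, 50, 110 or 230 min after that incubation, in 3 replicates per time (15 Affymetrix Mouse Gene 1.0 ST arrays). No array holds RNA from cells without actinomycin D, so the 0 min samples had already lost transcription for 30 min. The paper states that the experiment was done in triplicate, but the sources used here do not say whether the replicates were separate cultures. The p-values then measure only the spread between these samples, which may be technical. Each value is the ratio of a probe set to the 5th percentile of its array, so that a ratio of 1 is the 5th percentile and not a loss of all RNA. The arrays measure bulk RNA, in which fewer cells expressing a transcript and less of it per cell cannot be told apart.

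A snoRNA host gene is transcribed as a long precursor, small nucleolar RNAs are cut out of its introns, and the spliced exons are left behind. In Gas5 and several Snhg genes those exons have little coding capacity and begin with a pyrimidine tract of the kind found on ribosomal protein mRNAs, and the spliced RNA is known to be degraded by nonsense-mediated decay while ribosomes are on it. Malat1 and Neat1 are long RNAs kept in the nucleus, in nuclear speckles and as the scaffold of paraspeckles, respectively. Malat1 ends in a triple helix that protects it from exonucleases. Meg3 is an imprinted noncoding RNA of the Dlk1-Dio3 region.

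The annotated starts of Gas5, Snhg5 and Malat1 are shown because the pyrimidine tract lies at the very start of the transcript. Each line runs 5′ to 3′ on the strand of the gene and holds 10 bases before and 20 bases from the annotated first base (RefSeq, GRCm38.p6). Capitals mark a run of at least 5 C or T bases that includes the annotated first base.
Gas5, first annotated start (chr1:161034591-161034620, + strand): gcgggcccgcgagctcgacagcccggagcc
Gas5, downstream annotated start (chr1:161035156-161035185, + strand): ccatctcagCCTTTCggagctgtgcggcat
Snhg5 (chr9:88522878-88522907, - strand): gcggtgaaccgggctcgttcttttacgacg
Malat1 (chr19:5802653-5802682, - strand): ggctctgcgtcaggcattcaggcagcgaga
Only the downstream start of Gas5 among these 4 held such a run, of 6 bases. The Snhg5 window also holds a run of at least 5 C or T bases, but it begins after the annotated first base and was not counted. A run by the same definition was found at 3330 of 32851 annotated starts (10.1%), and it describes the letters in this window, not a regulated site. All 4 genes are annotated as long noncoding RNAs, Gas5 at chr1:161034601-161038539, Snhg5 at chr9:88521052-88522897, Malat1 at chr19:5795690-5802672 and Meg3 at chr12:109540996-109571729. Which exon or intron a probe set covers is not known here.

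In proliferating myoblasts Snhg5 and 2 of the 4 Gas5 probe sets were down to between 22.1% and 24.2% of their 0 min ratio at 230 min, whereas Malat1 still stood at 79.4% ± 9.08 (SD, n = 3). The decline of Snhg5 was steeper than that of Malat1 on the same arrays in 3 of 3 time courses, by 0.44 ± 0.02 log2 per hr. The 4 Gas5 probe sets did not all have the same slope, although 10351026, 10351035 and 10351037 were alike at 10 min (70.0%, 72.3% and 73.5% left). The pair 10351026 and 10351035 fell with slopes of -0.53 and -0.50 log2 per hr, whereas 10351037 fell with -0.24.

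Before these values are read, the scale of the arrays has to be known. The median ratio of an array was between 2.42 and 2.74 at 0 min and between 1.44 and 1.72 at 230 min, so the typical probe set moved toward the 5th percentile, and the median of all 25175 slopes was -0.14 log2 per hr. Dividing each array by its median or by its 75th percentile moved that median slope to 0.04 and 0.17 and turned the sign of the shallow members, as given below, but changed neither the order of the slopes nor the ratio between a pair of probe sets on 1 array. At 110 min replicate 1 and at 230 min replicate 2 had the lowest 75th percentile of their time point, 3.90 and 2.89. The trend, the 110 and 230 min changes and the half-lives were also fitted without these 2 arrays. The fit of a break in slope and the tests on pairs of probe sets were not repeated without them. Of 9 myoblast markers, 8 were above the median of their arrays at 0 min, among them Myod1 (27.3 ± 2.74) and Des (42.3 ± 7.73). Of 12 markers of differentiated myotubes 6 were: Myog (2.79 ± 0.474), Mymk, Ckm, Acta1, Tnnt3 and Tnni2. The highest mean of the myotube list at 0 min was 12.02, and the highest of the myoblast list was that of Des. Of 9 fibroblast and adipocyte markers 2 were above the median, and of 5 markers of other cells 2.

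**Figure D1:**
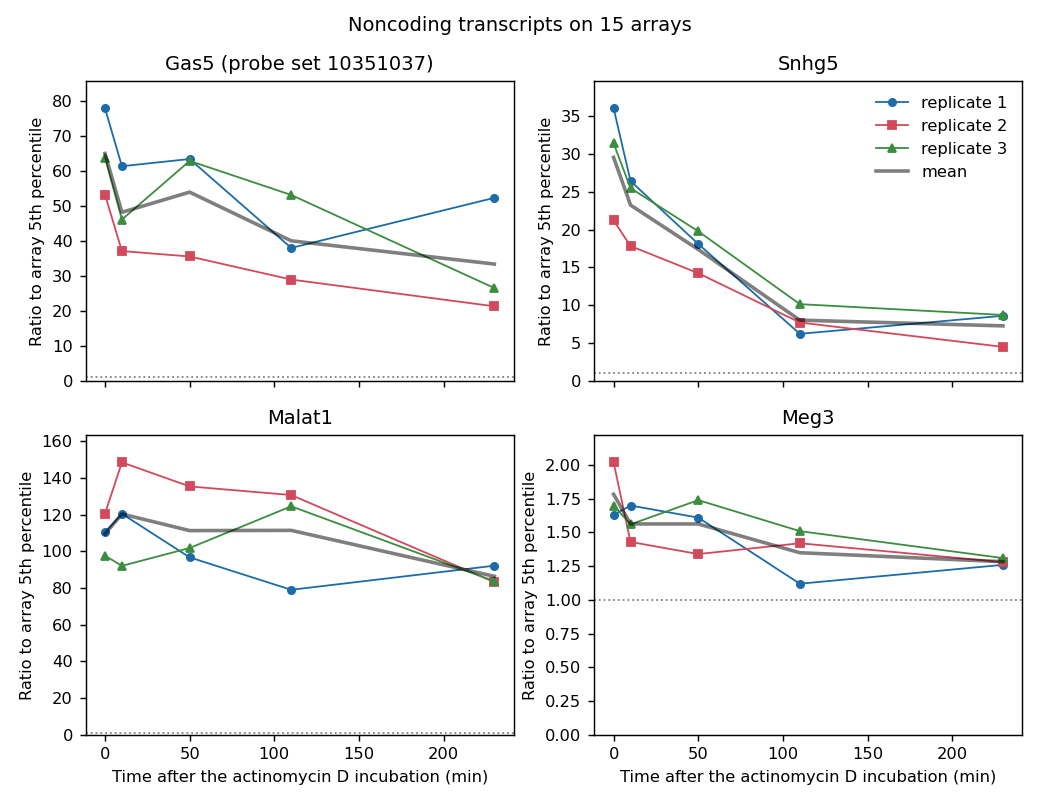
Ratio to the 5th percentile of the array (linear y axis, from 0) of Gas5 probe set 10351037, Snhg5, Malat1 and Meg3 against minutes after the actinomycin D incubation, with 1 symbol per replicate, the mean as a grey line and a dotted line at 1. Snhg5 fell from a mean of 29.6 to 7.26 while Malat1 went from 109 to 86.3, and Meg3 stayed under 2.1 on every array.

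Snhg5, host of small nucleolar RNAs of the box C/D class, was measured by 1 probe set. Its ratios in replicates 1, 2 and 3 were 36.1, 21.2 and 31.4 at 0 min, 26.4, 17.8 and 25.5 at 10 min, and 18.1, 14.2 and 19.8 at 50 min. They were 6.21, 7.71 and 10.1 at 110 min and 8.60, 4.48 and 8.71 at 230 min. Replicate 2 was the lowest at 0, 10, 50 and 230 min. The 0 and 10 min arrays overlapped, whereas all 50 min arrays lay below all 0 min arrays and all 110 min arrays below all 50 min arrays. The 110 and 230 min arrays overlapped. Relative to the 0 min array of the same replicate, 60.1% ± 8.82 was left at 50 min, 28.6% ± 10.1 at 110 min and 24.2% ± 3.32 at 230 min (SD, n = 3).

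In the linear trend over 15 arrays (limma, replicate as a block), Snhg5 fell by 0.54 log2 per hr (95% confidence interval -0.69 to -0.38, adjusted p = 1.92e-05), and 1.92% of all probe sets had a lower slope. The decline against 0 min was -0.75 ± 0.19 log2 (SE) at 50 min, which missed the threshold (adjusted p = 0.102), -1.88 at 110 min (adjusted p = 2.40e-05) and -2.05 at 230 min (adjusted p = 3.90e-06). Its slope kept its sign and its call under both other scalings, at -0.36 with the median (adjusted p = 3.41e-05) and -0.22 with the 75th percentile (adjusted p = 0.000184).

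Gas5, growth arrest-specific 5, is the host of a series of box C/D small nucleolar RNAs. The first of its probe sets, 10351026, gave 32.1, 22.6 and 27.8 at 0 min in replicates 1, 2 and 3, 22.2, 15.1 and 20.6 at 10 min, and 10.4, 12.1 and 12.4 at 50 min. The later arrays gave 5.15, 6.92 and 9.03 at 110 min and 7.82, 4.43 and 6.19 at 230 min. All 10 min arrays were below all 0 min arrays and all 50 min arrays below all 10 min arrays, whereas the 110 and 230 min arrays overlapped. Thus most of the decline had taken place by 50 min, when 43.5% ± 10.7 was left, against 26.4% ± 8.99 at 110 min and 22.1% ± 2.40 at 230 min.

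Probe set 10351035 of Gas5 ran alongside it. It gave 14.3, 7.93 and 12.8 at 0 min, 8.57, 7.00 and 8.76 at 10 min, and 4.66, 3.55 and 4.77 at 50 min. At 110 min the ratios were 2.24, 2.33 and 4.69 and at 230 min 3.13, 2.23 and 2.69. The 0 and 10 min arrays overlapped, every 50 min array was below every 10 min array, the 110 min arrays overlapped those of 50 and of 230 min, and every 230 min array was below every 50 min array. Of the 0 min ratio 38.3% ± 6.10 was left at 50 min and 23.7% ± 3.84 at 230 min.

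Probe set 10351037 declined less. Its ratios were 78.0, 53.3 and 63.9 at 0 min, 61.4, 37.1 and 46.2 at 10 min, and 63.5, 35.6 and 63.0 at 50 min. They were 38.0, 29.0 and 53.2 at 110 min and 52.4, 21.3 and 26.5 at 230 min. The replicates were far apart, with replicate 2 the lowest at every time point, and the highest array at 110 min (53.2) and at 230 min (52.4) lay just below the lowest 0 min array (53.3). On average 73.5% ± 4.68 was left at 10 min, 82.2% ± 15.9 at 50 min, 62.1% ± 18.5 at 110 min and 49.6% ± 15.2 at 230 min.

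The last Gas5 probe set, 10351039, was below the median of its array on all 3 arrays at 0 min. It read 1.88, 1.78 and 1.43 at 0 min, 1.43, 1.23 and 1.44 at 10 min, and 1.27, 1.05 and 1.16 at 50 min. The ratios were 1.06, 0.94 and 1.11 at 110 min and 1.15, 0.95 and 0.91 at 230 min. The 0 and 10 min arrays overlapped and the 3 later time points overlapped one another just above and below a ratio of 1, where little further decline could be seen.

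**Figure D2:**
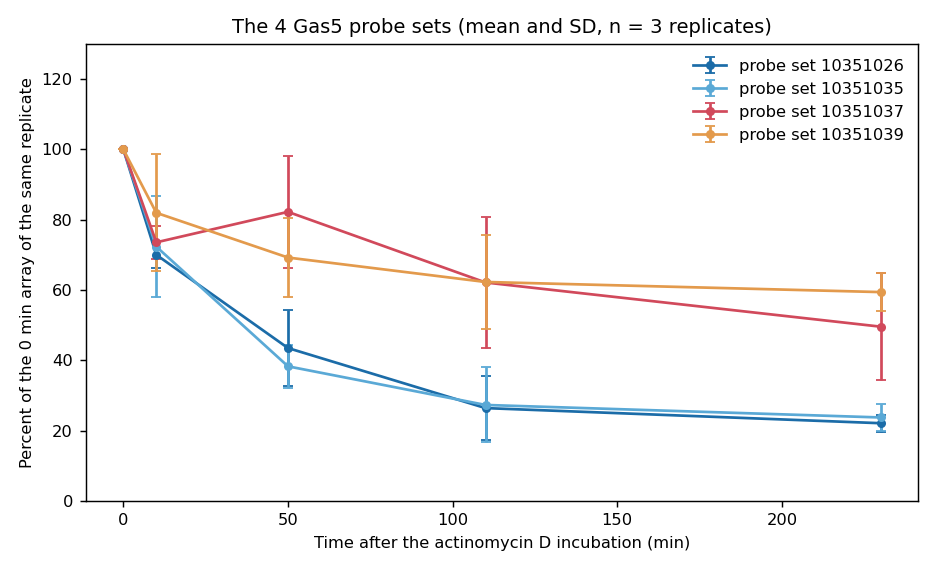
Percent of the 0 min ratio of the same replicate left at each time (minutes after the actinomycin D incubation) for the 4 Gas5 probe sets, as mean and SD of 3 replicates. At 50 min 10351026 and 10351035 were at 43.5% and 38.3%, and 10351037 was at 82.2%.

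All 4 Gas5 probe sets passed the threshold of the limma trend at the deposited scale. The slopes were -0.53 (95% confidence interval -0.71 to -0.35, adjusted p = 7.35e-05) for 10351026, -0.50 (-0.69 to -0.31, adjusted p = 0.000206) for 10351035, -0.24 (-0.34 to -0.13, adjusted p = 0.000811) for 10351037 and -0.16 (adjusted p = 0.00159) for 10351039. Over all probe sets, 2.05%, 2.69%, 27.6% and 45.2% had a lower slope than these, in the same order. The former pair kept its call under both other scalings. The slope of 10351037 lost its call with the median (-0.05, adjusted p = 0.225) and was 0.08 with the 75th percentile (adjusted p = 0.0705), and that of 10351039 turned to 0.02 and 0.15. Against 0 min, 10351026 was lower at 50 min by -1.23 ± 0.21 log2 (SE, adjusted p = 0.0169) and 10351035 by -1.40 ± 0.20 (adjusted p = 0.00598), and at that time 0.0914% and 0.0437% of all probe sets were lower still. These 50 min calls were lost without replicate 2 (-1.40 and -1.52, adjusted p = 0.210 and 0.232), without replicate 3 (-1.26 and -1.39, adjusted p = 0.336 and 0.123) and with 1 subtracted (-1.31 and -1.65, adjusted p = 0.169 and 0.123). The same contrast was -0.30 for 10351037 (adjusted p = 0.733). At 230 min the changes were -2.19, -2.09, -1.05 and -0.76 for 10351026, 10351035, 10351037 and 10351039, with adjusted p = 5.81e-06, 5.48e-06, 0.00102 and 0.000212.

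The difference among the Gas5 probe sets was tested on the arrays themselves, as the log2 ratio of a pair of probe sets on 1 array, which no scaling can alter. Its slope in time was compared with those from an exact permutation of the 5 times within each replicate (two-sided, 1728000 permutations), for 10 pairs chosen after the values had been seen. The slope of 10351026 was lower than that of 10351037 by 0.29 ± 0.06 log2 per hr (SD over 3 replicates, lower in 3 of 3, exact p = 0.00442, 0.0111 adjusted over the 10 pairs), and their log2 ratio changed by -1.13 ± 0.29 between 0 and 230 min. For 10351035 against 10351037 the difference was 0.26 ± 0.10 in the same direction (exact p = 0.0165, adjusted 0.0275), whereas 10351039 and 10351037 differed by 0.07 ± 0.07 (exact p = 0.160, adjusted 0.201). These calls need the 3 replicates. Without replicate 1 or replicate 2 the adjusted p for 10351026 was 0.0639 or 0.0765, at differences of -0.26 and -0.30, and that for 10351035 was 0.141, 0.0765 or 0.0654 without replicate 1, 2 or 3 and 0.0604 with a pseudocount of 1.

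The linear slopes of Snhg5 and Gas5 10351026 could not be told apart, at 0.01 ± 0.04 log2 per hr from each other (exact permutation p = 0.865, adjusted 0.893). A linear slope does not compare the shape of the courses. At 50 min 32.3%, 53.6% and 44.4% of Gas5 10351026 was left in replicates 1, 2 and 3, and 50.2%, 67.1% and 63.0% of Snhg5. That difference was not tested. Snhg5 was steeper than Gas5 10351037 by 0.30 ± 0.10 log2 per hr in 3 of 3 replicates (exact permutation p = 0.00231, adjusted 0.00771), with an adjusted p of 0.0690 without replicate 1 and 0.0765 without replicate 2.

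Malat1, the RNA of nuclear speckles, was above the array median on all 3 arrays at 0 min. Its ratios were 110, 120 and 97.6 at 0 min, 120, 148 and 92.1 at 10 min, and 96.7, 135 and 102 at 50 min. At 110 min they were 79.0, 131 and 125, and at 230 min 92.1, 83.2 and 83.7. Replicate 2 was the highest from 0 to 110 min. The arrays of the first 4 time points overlapped, and all 230 min arrays lay below all 0 min arrays. Of the 0 min ratio 103% ± 28.4 was left at 110 min and 79.4% ± 9.08 at 230 min.

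The slope of Malat1 was -0.10 log2 per hr at the deposited scale (95% confidence interval -0.18 to -0.02, adjusted p = 0.0274), but 0.08 and 0.22 with the arrays divided by their median or 75th percentile, since 63.9% of all probe sets had a lower slope. That call was lost without replicate 1 (-0.10, adjusted p = 0.0697), without replicate 2 (-0.06, adjusted p = 0.240), without the 2 arrays of low 75th percentile (-0.05, adjusted p = 0.223) and without the 230 min arrays (-0.03, adjusted p = 0.744). On all 15 arrays it was also lost with an intensity trend and robust variances (adjusted p = 0.0734), among probe sets above the array median at 0 min (0.0526) and among those with a mean log2 value above the median (0.0511). No single contrast passed, with 0.01 at 50 min (adjusted p = 0.995), -0.00 at 110 min (adjusted p = 0.985) and -0.34 at 230 min (95% confidence interval -0.73 to 0.05, adjusted p = 0.107). Malat1 was not paired with the faster Gas5 probe sets, so the pairs, chosen after the values had been seen, cannot rank all differences. Among the 10 pairs tested, Malat1 and Snhg5 had the lowest exact p of those in which both members were above the array median. For Malat1 against Snhg5 the values were as follows. The slope of Malat1 was higher by 0.44 ± 0.02 log2 per hr in 3 of 3 replicates (exact permutation p = 0.000367, adjusted 0.00184). The log2 ratio between both changed by 1.72 ± 0.09 from 0 to 230 min, and the adjusted p was between 0.00949 and 0.0389 without any 1 replicate. Against Gas5 10351037 the slope of Malat1 was higher by 0.14 ± 0.10 (exact permutation p = 0.0337, adjusted 0.0482), a call that was lost without any 1 of the replicates (adjusted p = 0.0690, 0.0765 and 0.355 without replicate 1, 2 and 3), with a pseudocount of 1 (0.0529) and with 1 subtracted (0.0512).

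Meg3 was read near the floor of the arrays, below the array median on all 3 arrays at 0 min. It gave 1.63, 2.02 and 1.70 at 0 min, 1.70, 1.43 and 1.56 at 10 min, and 1.61, 1.34 and 1.74 at 50 min. At 110 min it gave 1.12, 1.42 and 1.51 and at 230 min 1.26, 1.28 and 1.31. The arrays of 0, 10 and 50 min overlapped, and those of 110 and 230 min lay below the 0 min arrays. The slope of -0.11 log2 per hr (adjusted p = 0.00688) turned to 0.07 with the median and 0.21 with the 75th percentile, and 61.3% of all probe sets had a lower one. At 230 min 72.6% ± 7.98 of the ratio was left, a contrast of -0.47 log2 (adjusted p = 0.0111) that did not pass without replicate 2 (0.0792) or replicate 3 (0.0603). Its slope was higher than that of Snhg5 by 0.43 ± 0.05 log2 per hr (exact permutation p = 9.03e-05, adjusted 0.000903) and than that of Gas5 10351037 by 0.13 ± 0.10 (exact permutation p = 0.0131, adjusted 0.0263, and 0.206 without replicate 2 or 0.131 without replicate 3). Of Malat1 and Meg3 the slopes were 0.01 ± 0.07 apart (exact permutation p = 0.893). A probe set this close to a ratio of 1 can show only a small decline. With 1 subtracted from each ratio, Meg3 minus Snhg5 was 0.24 ± 0.11 log2 per hr (adjusted exact permutation p = 0.0396), Malat1 minus Meg3 was 0.25 ± 0.11 (adjusted exact permutation p = 0.0649), and Meg3 and Gas5 10351037 changed order.

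**Figure D3:**
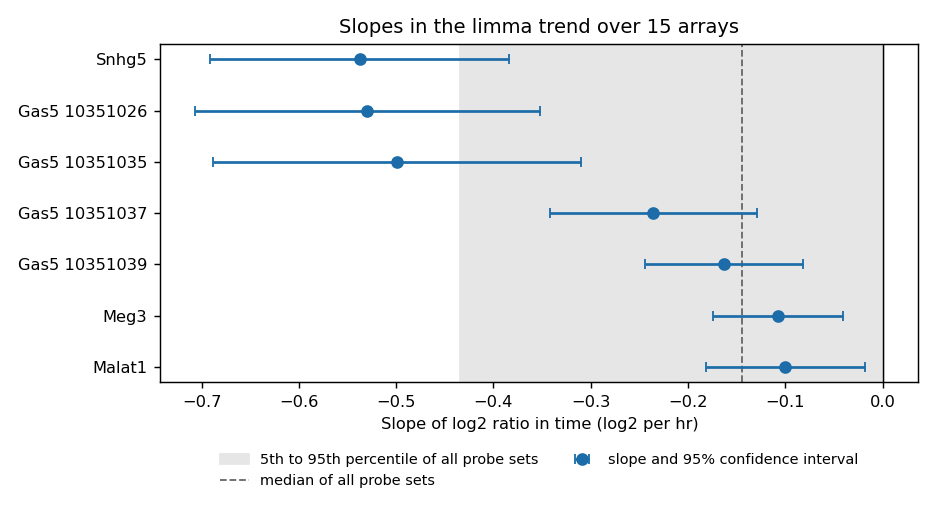
Slope of the log2 ratio in time (log2 per hr) with its 95% confidence interval from limma for the 7 probe sets, against the 5th to 95th percentile of all 25175 probe sets (grey band) and their median (dashed line, -0.14). Snhg5, Gas5 10351026 and Gas5 10351035 lie left of the band, and Gas5 10351037, Gas5 10351039, Meg3 and Malat1 lie within it, where they turn to slopes above 0 with the arrays divided by their 75th percentile.

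Counted per gene, 4 of the 4 measured genes fell in the trend at the deposited scale, where 75.8% of all probe sets did and 0.302% rose. With the arrays divided by their median 1 fell (Snhg5) and 1 rose (Meg3, adjusted p = 0.00923), beside 21.4% of all probe sets that fell and 40.3% that rose. With the 75th percentile 1 fell (Snhg5) and 2 rose (Malat1, adjusted p = 5.18e-05, and Meg3, adjusted p = 4.75e-05), beside 7.56% that fell and 74.1% that rose. At 10 min limma called 0 of the 4, as it called 0% of all probe sets. At an unadjusted p under 0.05, 606 probe sets were lower and 24 higher, none of them standing for one of the 4 genes. The other Gas5 probe sets, 10351026, 10351035 and 10351039, were among the 606 (limma unadjusted p = 0.0327, 0.0334 and 0.0244). At 50 min limma called 0 of the 4 (1, Snhg5, at an unadjusted p under 0.05), against 1.03% of all probe sets called lower, although both faster Gas5 probe sets were among those called. At 110 min 3 of the 4 (Gas5, Snhg5 and Meg3) were lower, against 51.1% of all probe sets called lower and 0.0516% called higher, a count of 3 that became 1 without replicate 2, 1 without the 2 arrays of low 75th percentile and 2 without replicate 1 or replicate 3. At 230 min the same 3 were lower, against 68.8% called lower and 0.0993% called higher, and 2 without replicate 2 or replicate 3, where Meg3 did not pass. The 4 contrasts share the 0 min arrays. With 4 genes, these counts show no more than the background does, and the members are told apart by the size of their decline.

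The decline of the faster transcripts was also fitted as a line with a break at 50 min. Gas5 10351026 went from -1.60 log2 per hr before it to -0.28 after it, Gas5 10351035 from -1.76 to -0.20, and Snhg5 from -1.19 to -0.38. The changes of slope were 1.32 ± 0.31, 1.56 ± 0.27 and 0.81 ± 0.35 log2 per hr (SE). By limma none passed over all probe sets (adjusted p = 0.245, 0.0635 and 1.00), where 0.0238% of probe sets were called with a shallower late slope and 874 had an unadjusted p under 0.05. Both Gas5 changes passed with the arrays divided by their median (adjusted p = 0.0307 and 0.00669) or 75th percentile (0.000994 and 0.00105) and with an intensity trend and robust variances (0.0195 and 8.22e-05). Both also passed among probe sets above the array median at 0 min (limma adjusted p = 0.00945 and 0.000572) and among those with a mean log2 value above the median (0.0107 and 0.000625). They did not pass with a pseudocount of 1 (0.208 and 0.0548), with 1 subtracted (1.00 and 0.538), without the replicate block (0.278 and 0.172) or without any 1 replicate (0.355 to 1.00 and 0.110 to 1.00), and that of Snhg5 passed under no alternative run.

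Half-lives were fitted in each replicate time course as an exponential decline to 0 on the ratios. They were 36.1, 76.7 and 71.2 min for Gas5 10351026 in replicates 1, 2 and 3, with a mean of 61.3 ± 22.0 min. Gas5 10351035 gave 34.9, 67.8 and 71.7 min (58.1 ± 20.2) and Snhg5 gave 56.2, 89.6 and 91.2 min (79.0 ± 19.7). Replicate 1, whose 110 min array was low, gave the shortest half-life of each of these. The slower Gas5 probe set 10351037 had 344, 183 and 268 min (265 ± 80.8 min, or 4.42 ± 1.35 hr), and 10351039 had 329, 261 and 335 min (308 ± 40.7). Meg3 gave 429, 494 and 681 min (535 ± 131) and Malat1 gave 548, 397 and 2620 min. For both, every half-life was longer than the time course and had no upper bound in any replicate. The interval of Gas5 10351037 had no upper bound in replicates 1 and 3 and reached 3254 min in replicate 2. That of 10351039 had none in replicates 1 and 2.

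A half-life counted as reliable when the p of its rate was under 0.05 and its 95% interval was narrower than 2 times the half-life, in at least 2 of 3 replicates. Of the 4 genes 0 reached that, against 5.84% of all probe sets (1469), whose median half-life was 136 min and whose 10th and 90th percentiles were 81.0 and 252 min. Snhg5 met it in 1 replicate (replicate 2, 60.6 to 137 min). Set beside the reliable half-lives, 2.72% and 3.34% of those were shorter than Gas5 10351035 and 10351026, 9.26% shorter than Snhg5 and 91.8% shorter than Gas5 10351037. In simulation the rule kept 96% of half-lives of 120 min but 42% of those of 240 min, so long ones may be under-represented among the reliable. These probe sets did not meet the rule themselves, and the shares do not rank them among all transcripts. The lengths depend on the model. With a constant floor fitted they were 25.8 min for Gas5 10351026, 16.8 min for 10351035, 46.1 min for Snhg5 and 114 ± 133 min for 10351037. With the arrays divided by their 75th percentile they were 189, 242 and 212 min for the first 3, and only 1 replicate of 10351037 declined.

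**Figure D4:**
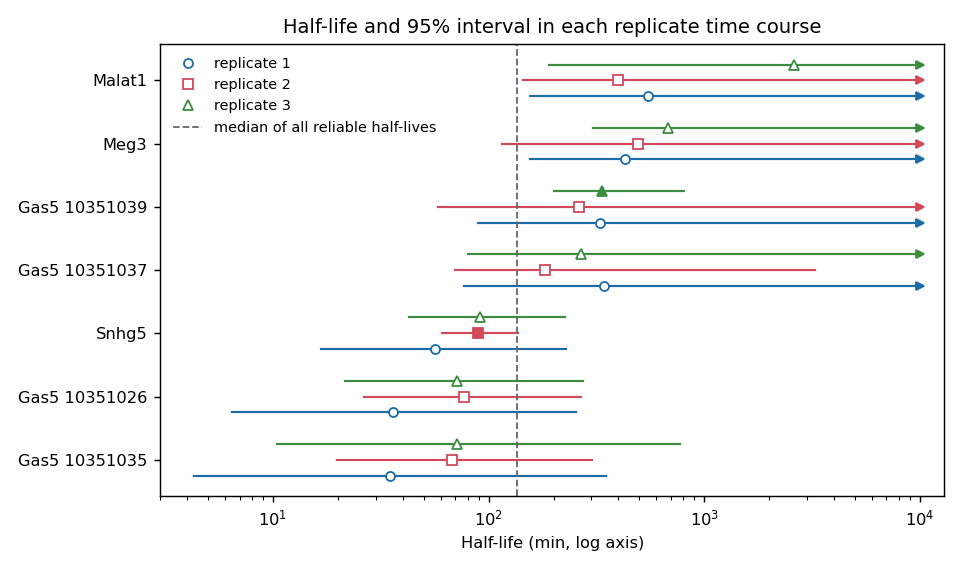
Half-life in minutes (log axis) with its 95% interval in each replicate time course of the 7 probe sets, filled where the fit was reliable, with arrows where the interval runs past the axis and a dashed line at the median of all reliable half-lives (136 min). The means of Gas5 10351035, Gas5 10351026 and Snhg5 (58.1, 61.3 and 79.0 min) lie left of the line, and those of the other 4 probe sets lie right of it, with intervals that mostly have no upper end.

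The genes most like each member were those with the smallest root mean square difference of the log2 change from 0 min over 12 arrays, among 10300 probe sets above the array median. Gas5 10351026 was nearest to Sertad1 (0.189) and Sik1 (0.200), and 10351035 to Sertad1 (0.247) and Ier3 (0.251). Those nearest to Snhg5 were Gcnt4 (0.148) and Clp1 (0.153). The slower Gas5 probe set 10351037 lay nearest to Rybp (0.161) and Atp6v1g2 (0.176), and Malat1 to Col5a2 (0.112) and Rpl5 (0.119). Sertad1 stood beside both of the faster Gas5 probe sets. Likeness was measured on the log2 change itself, so the other neighbours of 10351037 restate its different slope and are no separate result. The arrays are the same for all, and these differences describe likeness in time only.

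Among other noncoding snoRNA hosts, 4 of 15 names had a probe set, and all 4 fell at the deposited scale, where 75.8% of all probe sets fell. With the arrays divided by their 75th percentile 0 fell and 2 rose, beside 7.56% and 74.1% of all probe sets, and the counts of the lists that follow are read against the same shares. Their median slope was -0.25 log2 per hr, beside -0.14 for all probe sets and -0.25 for the 12544 above the array median at 0 min. The steepest was Snhg17 (-0.34, adjusted p = 7.85e-06), from 12.1 ± 1.36 at 0 min to 4.63 ± 1.18 at 230 min, followed by Dancr (-0.28), a noncoding RNA named for its effect on differentiation, and Snhg16 (-0.22). None of these had a slope as low as that of Snhg5. Protein-coding snoRNA hosts were matched for 25 of 32 names, of which 20 fell and 5 did not pass, with a median slope of -0.16 (75.8% of all probe sets fell). All 25 were above the array median at 0 min, and of the 12544 such probe sets, tested alone, 96.4% fell. Of these 25 hosts 2 fell and 17 rose at the 75th percentile, where 7.56% and 74.1% of all probe sets did. They ranged from Gnl3, which encodes the nucleolar protein nucleostemin (-0.77, adjusted p = 3.78e-07), and Nop56, a core protein of box C/D particles (-0.50, adjusted p = 1.89e-06), to Rpl10 (-0.06, adjusted p = 0.0703) and the elongation factor gene Eef2 (-0.07, adjusted p = 0.0961). Ribosomal protein genes have many near-identical pseudogenes, and a probe set named for one may read several of them.

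Other noncoding transcripts were matched for 11 of 26 names. At the deposited scale 9 fell, 1 rose and 1 did not pass, with a median slope of -0.19, and with the arrays divided by their 75th percentile 0 fell and 7 rose (75.8% of all probe sets fell at the former scale, and 74.1% rose at the latter). Among those above the array median, Sra1 (-0.34), a steroid receptor RNA activator, and Tug1 (-0.32) were steepest. Rmrp, the RNA of the endonuclease RNase MRP and a product of another kind than a spliced host RNA, went from 102 ± 24.7 to 90.5 ± 21.1, a slope of -0.05 that did not pass (adjusted p = 0.378). The telomerase RNA Terc had -0.14. The single transcript called higher, Dleu2, read 0.757 ± 0.0681 at 0 min and 0.883 ± 0.0416 at 230 min, under the 5th percentile of its arrays.

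Genes whose proteins work with these RNAs were described in the same way, against 75.8% of all probe sets that fell at the deposited scale, and 7.56% that fell and 74.1% that rose at the 75th percentile. All 13 matched genes of small nucleolar ribonucleoproteins and their assembly factors fell at the deposited scale, with a median slope of -0.27, and 4 fell and 3 rose at the 75th percentile. The steepest were Nufip1 (-0.64, adjusted p = 6.37e-07), an assembly factor, and Nop56, and the shallowest Snu13 (-0.17) and Ruvbl2 (-0.20). The 11 matched genes of paraspeckle and nuclear speckle proteins all fell, with a median of -0.20, while at the 75th percentile 1 fell and 7 rose. Here Son (-0.42), a scaffold of nuclear speckles, and Pspc1 (-0.36), a paraspeckle protein, were steepest, and Hnrnpk (-0.10) and Srsf2 (-0.16) shallowest. Of nonsense-mediated decay and exonuclease genes all 15 matched fell, with a median of -0.26 (3 fell and 6 rose at the 75th percentile), from Smg8 (-0.48) and Mtrex (-0.43), the RNA helicase of the nuclear exosome, to Dcp2 (-0.20) and Upf1 (-0.15), the central helicase of nonsense-mediated decay. All matched genes of these 3 lists were above the array median at 0 min, where the median slope of all probe sets was -0.25. Of the 12544 such probe sets, tested alone, 96.4% fell.

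**Figure D5:**
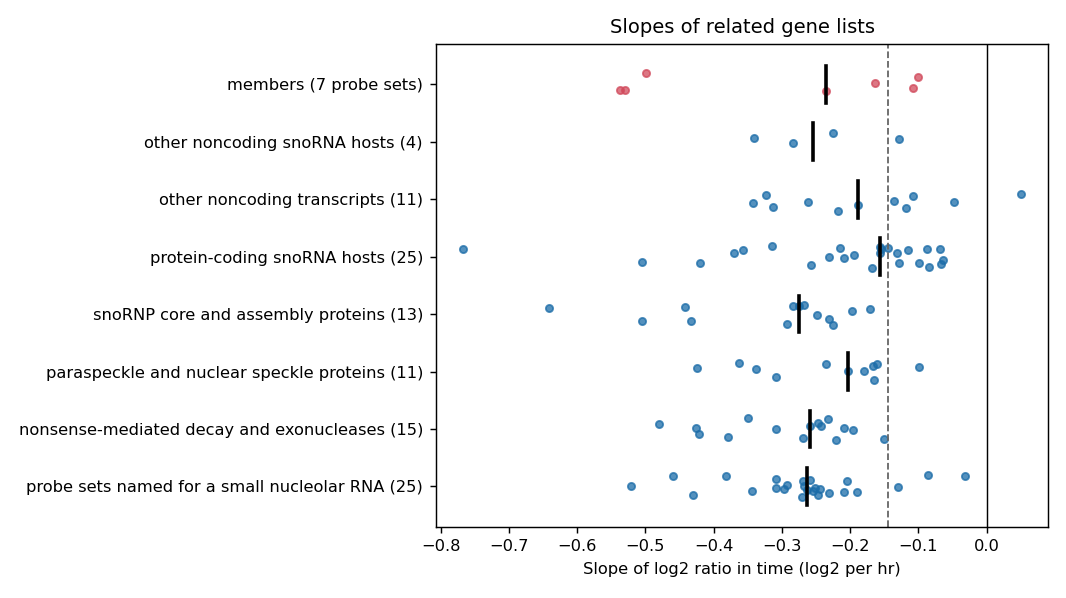
Slope of the log2 ratio in time (log2 per hr, deposited scale) of each matched probe set in the members and 7 related lists, with the list's median as a black bar and the median of all probe sets as a dashed line (-0.14). The members reach from -0.54 to -0.10, and the lists' medians lie between -0.27 and -0.16. With the arrays divided by their 75th percentile the median of all probe sets moves to 0.17.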

How the data were processed

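Processed values of 15 Affymetrix Mouse Gene 1.0 ST arrays were used. They are deposited as a linear ratio, for which the authors scaled every probe set of an array to that array's 5th percentile. How probes were summarised, whether background was corrected and with which program is not given in the sources used here. Detection p-values were not used. In the platform annotation 21044 of 25175 probe sets list 1 symbol, 1492 several and 2639 none. The number of arrays limits the precision.

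The log2 of the ratios was fitted with limma 3.58.1 in R 4.3.3 (eBayes, replicate as a block, Benjamini-Hochberg over all probe sets, threshold 0.05), as a linear trend in time, as contrasts with 0 min, and as a line with a break at 50 min. No filter on level was set, since one on the 0 min arrays would favour members that fell. Half-lives were fitted with scipy 1.17.1 and numpy 2.4.6 in Python 3.11.15 as A·exp(-kt) on the ratios of each replicate, with 95% profile intervals. On simulated data the trend over 25175 probe sets recovered 85% of the slopes of 0.25 and 99% of the slopes of 0.5 (log2 per hr), with 17 false calls. Fitted half-lives had medians of 1.00, 1.02, 0.983 and 1.02 times true ones of 30, 60, 120 and 240 min, and 100%, 99%, 96% and 42% were reliable. These simulated courses were exponentials to 0 without a floor or shifts of whole arrays. They do not show how accurate the fit is on the arrays used here.

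Genes were named by rule: the members with all their probe sets, for each member above the array median the 2 genes nearest in time course, and from each gene list the 2 steepest and 2 shallowest slopes above the array median. The members and lists were chosen with earlier results of these data known. The small nucleolar RNA probe sets and the pairs of probe sets were chosen after their values were seen. Alternatives changed the scaling, level filter, pseudocount, background, block, variance model, replicates, arrays, time points, decay model and probe set per gene. Names and start sequences came from RefSeq (GRCm38.p6), where 20959 single-symbol probe sets were matched by gene number.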

Additional observations from a re-analysis of the deposited data

How the results depend on the processing

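The steep declines of Snhg5, Gas5 10351026 and Gas5 10351035 kept their direction and call in the trend under every alternative run. Other calls changed with the scaling, the filter, the variance model, the block or the arrays used. With the arrays divided by their median, the genes that fell numbered 1 in the trend, 1 at 110 min and 1 at 230 min, and 5385 probe sets of all fell. With the 75th percentile they numbered 1 in the trend, 1 at 50 min, 1 at 110 min and 1 at 230 min, and 1904 of all fell. With the median, slopes turned to 0.018 for Gas5 10351039, 0.081 for Malat1 and 0.074 for Meg3, the 110 min change to 0.53 for Malat1 and 0.13 for Meg3, and the 230 min change to 0.37 and 0.24. With the 75th percentile the slopes of Gas5 10351037, Gas5 10351039, Malat1 and Meg3 were 0.082, 0.15, 0.22 and 0.21, the 110 min changes 0.13, 0.16, 0.86 and 0.45, and the 230 min changes 0.11, 0.41, 0.83 and 0.70. Testing only probe sets above the array median at 0 min left 2 genes in the trend (Malat1 lost its call and Meg3 was not tested), 1 at 50 min and 12097 probe sets, and a filter on the mean log2 value left 2, 1 and 12113. The mean over all probe sets of a gene gave 1 at 50 min. Reliable half-lives numbered 1 without the 230 min arrays and 1 with an exponential to 1. Without the 2 arrays of low 75th percentile (110 min replicate 1, 230 min replicate 2), 1 gene fell at 110 min and the change of Malat1 there was 0.20. Leaving out 1 replicate at a time gave 1 to 2 genes at 110 min, Malat1 changes of -0.065 to 0.11 at 50 min and -0.18 to 0.23 at 110 min, and Meg3 changes of -0.30 to 0.0079 at 50 min. Malat1 minus Meg3 was -0.035 with a pseudocount of 1 and between -0.019 and 0.046 without 1 replicate, but 0.25 with 1 subtracted (adjusted p = 0.0649), Gas5 10351026 minus Snhg5 was between -0.011 and 0.030, and with 1 subtracted Gas5 10351039 and Meg3 minus 10351037 were -0.32 and -0.11. Apart from scaling, the cause was not tested.

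The replicate block follows the study's fits of single time courses. Deviations from the time means correlated over 0.1 in 18 of 30 same-number pairs (median 0.227) and in 11 of 60 with other numbers (median -0.129), so the pairing is not settled by the data. Without the block 4 genes fell in the trend, 19054 probe sets fell in all, 2 genes fell at 110 min, where Gas5 10351037 lost its call (adjusted p = 0.0869), and 3 at 230 min.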

Other observations

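The small nucleolar RNAs themselves are released from host introns, and 25 probe sets carried a small nucleolar RNA as their only symbol, a group chosen after the values were seen. At the deposited scale 23 fell and 2 did not pass, and the median of their slopes was -0.26 log2 per hr, and with the arrays divided by their 75th percentile 3 fell and 8 rose. Of all probe sets 75.8% fell at the former scale, and 7.56% fell and 74.1% rose at the latter. Among the small nucleolar RNA probe sets 24 were above the array median at 0 min. Of the 12544 such probe sets in all, tested alone, 96.4% fell at the former scale. The steepest were Snord73b (-0.52, limma adjusted p = 2.18e-05), from 6.29 ± 0.445 at 0 min to 1.56 ± 0.405 at 230 min (SD, n = 3), and Snora70 (-0.46, adjusted p = 1.58e-05). The shallowest were Snord35a (-0.03, adjusted p = 0.545) and Snord35b (-0.09, adjusted p = 0.0887). Whether a probe set read the small RNA or the precursor that carries it was not tested. Of 10 small nucleolar RNA names hosted by Gas5 and 2 hosted by Snhg5 that were looked up, 0 had a probe set with a single symbol, so host and product could not be set side by side for either.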
